A study of Equus caballus with 23 samples.

Results

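The response of gluteal muscle RNA to exercise was compared between a first and a second group of horses labelled as Arabian, called column block 1 and column block 2 because they are set apart only by the order of their columns in the count table. The members were the horses with a library from before and a library from after exercise, 11 of the 12 horses and 22 of the 23 libraries in the series. Column block 1 held A9185, A9187, A9191, A9195 and A9197, which are 5 horses with 10 libraries in columns 1 to 10. Column block 2 held A9184, A9188, A9190, A9194, A9196 and A9202, which are 6 horses with 12 libraries in columns 12 to 23. The library of A9199, in column 11 between the blocks, came from before exercise alone and was left out.

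The samples of these 11 horses were needle biopsies of the middle gluteal muscle, taken before a ridden aerobic exercise test and 3 h after it ended, with the sampled side alternating. The study included healthy horses and horses with myofibrillar myopathy, a muscle disease in which the protein desmin aggregates within fibers, and it describes an Arabian-cross horse among them and fewer horses, in all and after exercise, than the labels name. The labels give the breed, the tissue and the time relative to exercise, but not the disease status, age or sex of a horse, so what separates the column blocks beyond their order is not known here. Each horse is a separate animal, no sequencing or library batch is named, and the side of the biopsy and the time that passed cannot be told apart from exercise.

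The middle gluteal muscle is a large propulsive muscle of the hindquarter and holds both slow and fast fibers. In the hours after a bout of exercise, skeletal muscle changes the transcription of genes for stress signaling, fuel use and remodeling, and genes of the daily clock change with the hour as well. A block by exercise interaction asks whether the change within a horse differs between groups of horses, which is a separate question from whether the groups differ in level.

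The measured values were the numbers of reads counted on each of 11330 genes. The total count of column block 1 had a median of 25968192 before exercise (range 24176301 to 29452440) and of 23172402 after exercise (range 23048221 to 26388085). For column block 2 the median was 25191819 before exercise (range 22528109 to 27982774) and 24998758 after exercise (range 23087418 to 26230501). The ranges of the 4 groups overlapped, and 3 counts in a library corresponded to between 0.102 and 0.133 CPM (counts scaled to a common library total), computed here from the total counts. This floor covers counting error only, and all other CPM values use TMM-normalized library sizes, on which 3 counts can lie outside that range. Genes are listed by Ensembl identifier, and 0 of the 11330 identifiers were paired with a name in the tables used here; 2 of them end in letters in place of digits and were treated like the others. The markers of muscle fibers and of other cell types were therefore not looked up, and the labelled tissue was not checked against them.

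The responses of the column blocks were first compared gene by gene. After exercise 69.6% of genes had a log2 fold change of the same sign in both blocks, and 0 genes (0% of the 11330 tested) passed the test of a different response. For the gene with the strongest difference the adjusted P was 0.996 (edgeR's quasi-likelihood test of the interaction, Benjamini-Hochberg adjustment, n = 5 and 6 horses). At an unadjusted P under 0.05 the same test gave 456 genes (4.02%). Of these, 186 (1.64%) had a higher log2 fold change in block 1 and 270 (2.38%) a lower one. DESeq2's Wald test also called 0 genes, with 269 at an unadjusted P under 0.05. The counts at that limit were 433 with edgeR's likelihood ratio test and 470 with limma-voom, and both again called 0 genes after adjustment. Expression was measured in whole tissue, where fewer cells of a type and less RNA per cell cannot be told apart.

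With all 11 horses, the unadjusted P-values of the difference fell with 456 to 630 genes into each bin of 0.05, and the bin nearest 0 held the fewest. The number of genes in that bin moved with single horses, being 300 without A9187, 643 without A9191 and 811 without A9197. The same bin held 1797 genes (15.9%) for the response of block 1 and 1424 genes (12.6%) for that of block 2, where it was the fullest of all bins. With 1 horse left out, these numbers were 1197 to 2640 for block 1 and 1083 to 1596 for block 2. A fit with no replicate block, which drops the pairing by horse, gave 821 and 778.

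**Figure D1:**
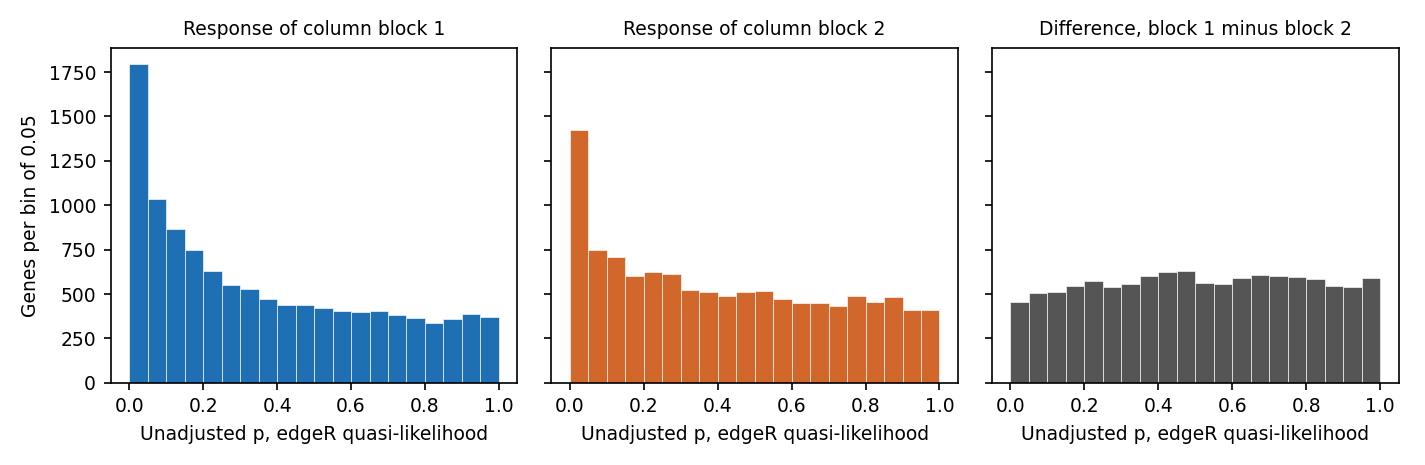
Histograms of the unadjusted P-values of edgeR's quasi-likelihood test over 11330 genes in bins of 0.05, for the response of column block 1, the response of column block 2 and the difference between them; the vertical axis is the number of genes. Both responses pile up near 0 (1797 and 1424 genes in the first bin), whereas the first bin of the difference is its lowest in this fit of all 11 horses, with 456 genes (300 to 811 with 1 horse left out).

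The 95% confidence intervals of the difference give the precision for each gene and are not adjusted for the number of genes tested, so they do not bound what the adjusted test could miss. The interval lay within 1 log2 unit of 0 for 10271 genes (90.7%) and within 0.5 log2 units of 0 for 6269 genes (55.3%). The standard error of the difference had a median of 0.160 log2 units over all genes, and the median absolute difference was 0.10. The precision followed abundance. In the fifth of genes with the lowest abundance (mean of 0.386 to 2.69 CPM) the interval extended a median of 0.62 log2 units to each side and lay within 1 unit of 0 for 67.3% of the genes. In the fifth with the highest abundance (above 31.0 CPM) it extended 0.23 units and lay within 1 unit of 0 for 98.2%. An estimated difference above 1 log2 unit in either direction was found for 49 genes, of which 32 were in the fifth with the lowest abundance.

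The overall size of the response did not differ between the column blocks beyond the spread between horses. For each horse, the median absolute change in log2 CPM from before to after exercise was taken over all genes, with a prior count of 2. This median was, in column block 1, 0.161 log2 units in A9185, 0.213 in A9187, 0.309 in A9191, 0.171 in A9195 and 0.201 in A9197. Among the horses of column block 2 it was 0.198 in A9184, 0.183 in A9188, 0.160 in A9190, 0.207 in A9194, 0.163 in A9196 and 0.172 in A9202. A9191 stood above all other horses, and the remaining 10 horses overlapped between the blocks. The mean was 0.211 ± 0.0587 in block 1 and 0.181 ± 0.0193 in block 2 (SD, n = 5 and 6 horses), a difference of 0.0306 (exact permutation test over horses, two-sided, p = 0.264). Without A9191 the difference was 0.00613 (p = 0.662, the same exact test).

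The number of genes that moved by more than 1 log2 unit within a horse was counted as well. It was 319 in A9185, 359 in A9187, 653 in A9191, 359 in A9195 and 358 in A9197, and in column block 2 it ranged from 264 in A9202 to 426 in A9184. The mean was 409.6 ± 137 genes in block 1 and 330.0 ± 59.5 genes in block 2 (SD, n = 5 and 6 horses; exact permutation test, p = 0.227). This difference of 79.6 genes was 18.3 genes without A9191 (p = 0.590, the same exact test). A9191 was again the horse farthest from the others, and 539 of its 653 genes were lower after exercise. Directions were mixed between horses within both blocks. More genes were higher than lower by over 1 log2 unit in A9185 (178 against 141), whereas the opposite held in A9187 (130 against 229) and A9195 (136 against 223). Within column block 2, A9202 had 192 higher and 72 lower, and A9194 had 85 higher and 217 lower.

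**Figure D2:**
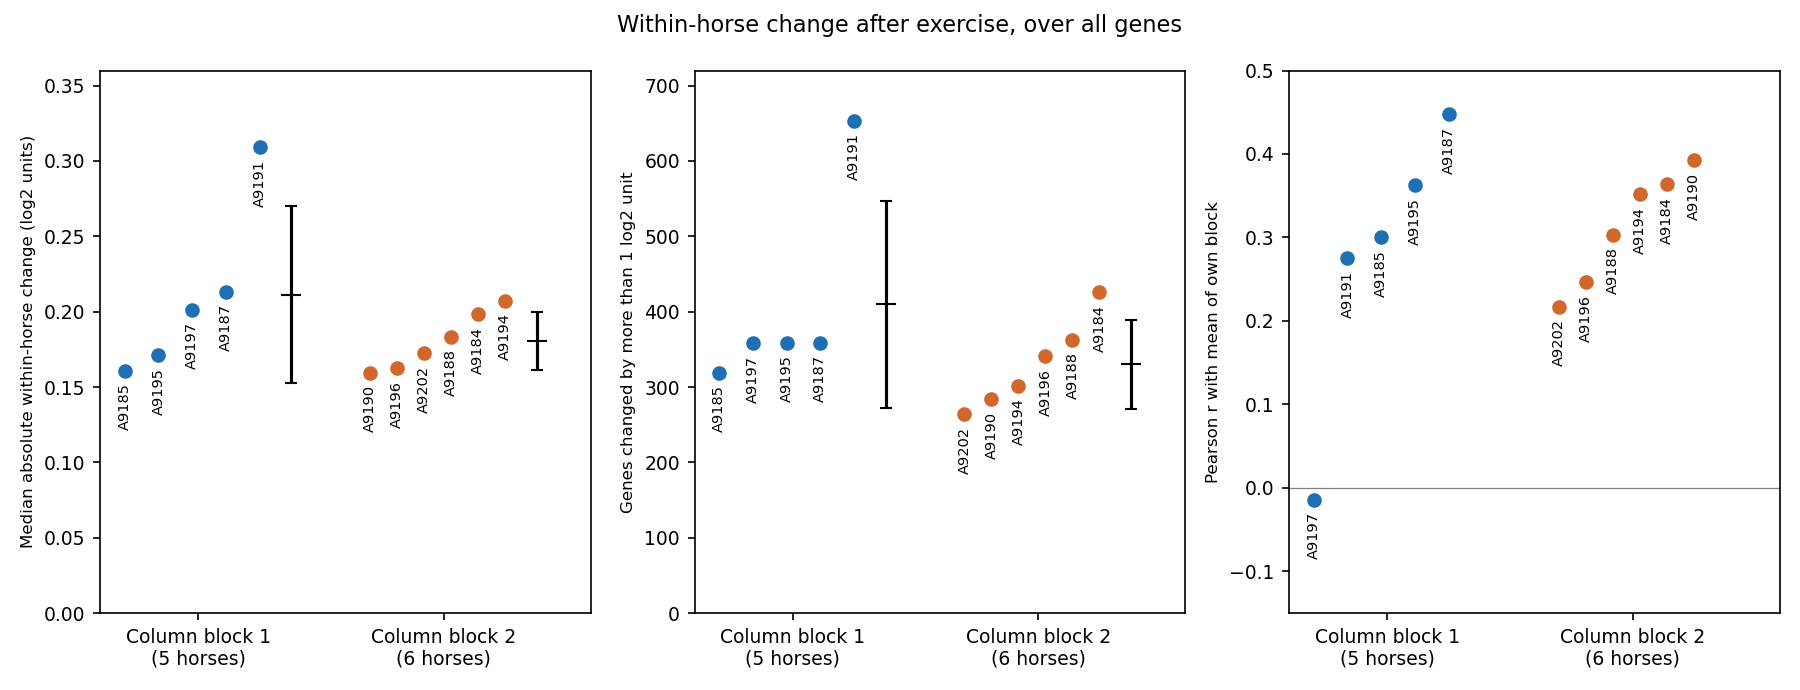
Each point is 1 horse, with column block 1 (5 horses) on the left of each panel and column block 2 (6 horses) on the right; the vertical axes give the median absolute change in log2 CPM, the number of genes that moved by more than 1 log2 unit, and Pearson's r of the horse's changes with the mean of the other horses of its block. Bars are the mean and SD of a block; A9191 (0.309 and 653 genes) lies above all other horses in the first and middle panels, and A9197 has the lowest r, -0.0144.

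The spread of the response between the horses of a block was also examined. For each gene the SD of the within-horse change was computed in each block, and its median over genes was 0.265 log2 units in block 1 and 0.234 in block 2. The SD was larger in block 1 for 59.3% of genes. Without A9191 the median of block 1 was 0.229, and the SD was larger in block 1 for 49.0% of genes, so that the direction of this comparison turned with 1 horse.

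In column block 1, muscle RNA after exercise differed from before exercise in 75 genes (0.662% of the 11330 tested) at an adjusted P under 0.05 by edgeR's quasi-likelihood test. Of these, 27 rose (0.238%) and 48 fell (0.424%), so that genes that fell were in the majority. The median absolute log2 fold change of the 75 genes was 0.75, against 0.12 over all genes, and the values ranged from -2.41 to 2.41. Of the 75 genes, 8 rose and 14 fell by more than 1 log2 unit. The change had the same direction in all 5 horses for 72 of the 75 genes, and over all genes 1416 (12.5%) moved the same way in all 5 horses. The number of calls rested on single horses, being 4 without A9187, 20 without A9191, 20 without A9195, 30 without A9185 and 231 without A9197. It was also 195 with DESeq2's Wald test, 308 with edgeR's likelihood ratio test, 5 with no replicate block for horse and 4 when the libraries of block 1 were fitted alone.

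In column block 2 the test called 102 genes (0.9%), and here genes that rose were in the majority. After exercise 65 genes rose (0.574%) and 37 fell (0.327%), with a median absolute log2 fold change of 0.71 against 0.09 over all genes and a range from -1.44 to 2.38. Above 1 log2 fold change there were 21 higher and 6 lower genes. The direction was shared by all 6 horses for 94 of the 102 genes, and over all genes 855 (7.55%) moved the same way in all 6 horses. The number of calls was 13 without A9190, 34 without A9184, 40 without A9194, 44 without A9188 and 168 without A9191, which is a horse of the other block. It was 231 with DESeq2's Wald test, 341 with edgeR's likelihood ratio test, 3 with no replicate block and 174 when the libraries of block 2 were fitted alone.

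The balance of higher and lower calls differed in appearance, with 36% of the calls higher in block 1 and 63.7% higher in block 2. Whether that balance differed between the blocks was not tested, and it moved with single horses. Leaving out 1 horse at a time gave between 25% and 65% higher calls in block 1 and between 53.8% and 75% in block 2. At an unadjusted P under 0.05 the majorities were smaller, with 805 higher and 992 lower genes in block 1 and 726 higher and 698 lower genes in block 2.

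The genes called in one column block mostly moved the same way in the other. Of the 75 genes called in block 1, 72 (96.0%) had the same sign in block 2, and 52 of these also had an unadjusted P under 0.05 there, beside 12.6% of all genes in either direction. Of the 102 genes called in block 2, 99 (97.1%) had the same sign in block 1, and 65 of these had an unadjusted P under 0.05 there, beside 15.9% of all genes. Over all genes the share with the same sign was 69.6%. The blocks share no horse, but both responses come from 1 fit with a common estimate of each gene's dispersion and a common normalization.

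The size of the change was smaller in the block that had not been used for the choice of genes. For the genes called in block 1, the median change in the called direction was 0.75 log2 units in block 1 and 0.35 in block 2, and it was smaller in block 2 for 69 of the 75 genes. For the genes called in block 2, it was 0.71 in block 2 and 0.37 in block 1, and it was smaller in block 1 for 87 of the 102 genes. Because the first value of each pair is the one that chose the genes, this gap is a description and is not evidence of a different response. The difference itself had an unadjusted P under 0.05 for 32 of the 75 genes (42.7%) and for 31 of the 102 (30.4%), beside 4.02% over all genes and with the choice of genes favoring it, and it passed adjustment for 0 of them.

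The genes called in both blocks numbered 20, which is 26.7% of the calls of block 1 and 19.6% of those of block 2. All 20 had the same direction in both blocks, 10 higher and 10 lower after exercise, and 19 moved the same way in all 11 horses. Over all genes 176 (1.55%) moved the same way in all 11 horses. The median absolute log2 fold change of the 20 genes was 1.09 in block 1 and 1.08 in block 2, and 10 of the 20 exceeded 1 log2 unit in both. The difference between the blocks ranged from -0.52 to 0.40 log2 units for these genes, with a median absolute value of 0.15. Their median abundance was 12.3 CPM, against 9.17 CPM over all genes. The number called in both was 4 without A9187, 8 without A9195, 9 without A9188, A9190 or A9191, 10 without A9184 or A9194, 12 without A9185, 13 without A9196 and 38 without A9197. It was 56 with DESeq2's Wald test, 79 with edgeR's likelihood ratio test and 0 with no replicate block.

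The genes called in block 1 alone numbered 55, of which 17 rose and 38 fell. In block 2, 52 of the 55 had the same sign and 32 of these an unadjusted P under 0.05 (12.6% over all genes), with a median of 0.65 log2 units in block 1 and 0.29 in block 2. The genes called in block 2 alone numbered 82, of which 55 rose and 27 fell. In block 1, 79 of the 82 had the same sign and 45 of these an unadjusted P under 0.05 (15.9% over all genes), with a median of 0.67 in block 2 and 0.31 in block 1. A call in 1 block alone therefore did not show a different response, since 0 of these genes passed the test of the difference. Among them, 3 genes called in block 1 and 3 called in block 2 had the opposite sign in the other block, and the smallest adjusted P of the difference was 0.996 for them as well.

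**Figure D3:**
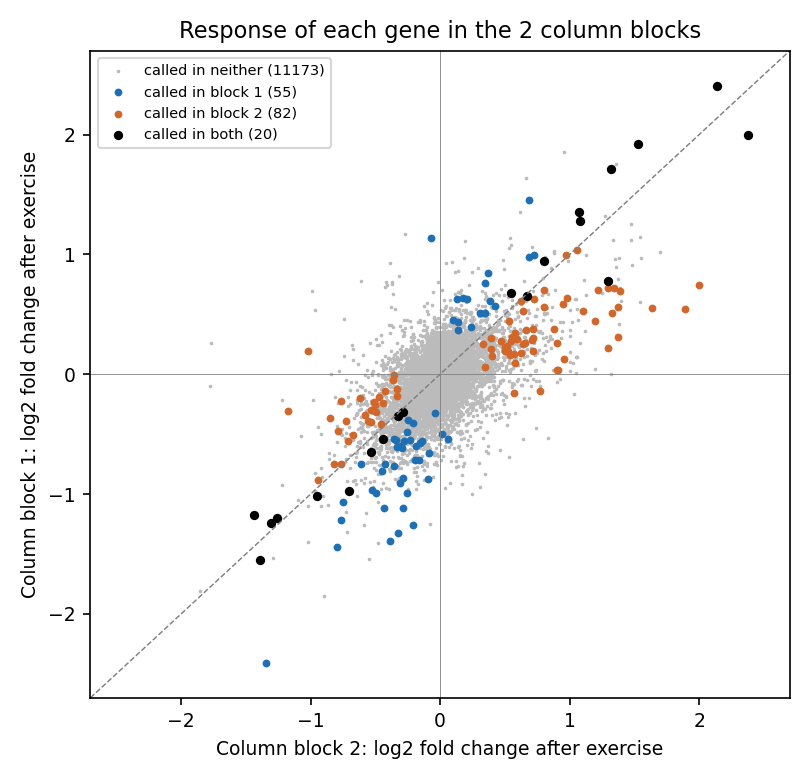
Each point is 1 gene, with its log2 fold change after exercise in column block 2 on the horizontal axis and in column block 1 on the vertical axis; colors mark genes called in block 1 alone (55), in block 2 alone (82), in both (20) or in neither (11173), and the dashed line marks equal change. The genes called in both lie along that line, those called in 1 block alone lie mostly in the same quadrants but nearer to the axis of their own block, and 5 genes fall outside the axis limit of 2.7.

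Across genes, the log2 fold changes of the blocks had a Pearson r of 0.584 and a Spearman rho of 0.517 (11330 genes). For the 11173 genes called in neither block, Pearson's r was 0.553. Genes are not independent replicates, and the values share the fit and the normalization, so these figures describe the blocks only. The SD over genes was 0.260 for the fold change of block 1, 0.242 for that of block 2 and 0.229 for their difference.

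With all 11 horses taken as 1 group in the same model, 704 genes (6.21%) were called. They included 68 of the 75 genes called in block 1 and 95 of the 102 called in block 2, and 561 of them were called in neither block. All 704 had the same sign in both blocks, a property that the call over all horses favors. The difference between the blocks had an unadjusted P under 0.05 for 50 of these genes (7.10%), beside 4.02% over all genes, and it passed adjustment for 0 of them.

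The resemblance of horses within a block overlapped with that between blocks. The within-horse changes of each horse were correlated across genes with the mean change of the remaining horses of its own block and with the mean of the other block. For the horses of column block 1, r with the own block was 0.300 in A9185, 0.447 in A9187, 0.275 in A9191, 0.362 in A9195 and -0.0144 in A9197, and r with block 2 was 0.291, 0.287, 0.409, 0.406 and 0.242 in the same order. A9191, A9195 and A9197, 3 of the 5 horses, were thus nearer to the other block than to their own. For those of column block 2, r with the own block ranged from 0.217 in A9202 to 0.393 in A9190 with a median of 0.328, and r with block 1 ranged from 0.0967 in A9202 to 0.528 in A9184 with a median of 0.269. A9184 and A9194, 2 of the 6 horses, were nearer to the other block. A horse of block 1 was set against 4 horses of its own block and 6 of the other, and a horse of block 2 against 5 and 5, and a mean over fewer horses is noisier.

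Pairs of horses gave a view that does not depend on the number averaged. The median r was 0.167 for the 10 pairs within block 1 (range -0.109 to 0.425), 0.199 for the 15 pairs within block 2 (range 0.0258 to 0.271) and 0.166 for the 30 pairs between blocks (range -0.0671 to 0.427). The 3 ranges overlapped, and that within block 2 was the narrowest, with 0 pairs below 0 against 2 pairs in each of the other sets. The highest r between blocks was that of A9191 with A9194, 0.427, and it was close to the highest within block 1, that of A9187 with A9191, 0.425. The lowest r of all was within block 1, between A9187 and A9197 (-0.109).

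A difference between the column blocks appeared in the change of the share of all counts that fell on the 10 most abundant genes, but it did not pass adjustment when any 1 horse of block 1 was left out. Adjustment was made for this number of genes alone, and with the other numbers of genes tried the unadjusted exact p was too high to pass it. The share in column block 1 was 40.2% before and 39.3% after exercise in A9185, 42.4% and 42.3% in A9187, 37.6% and 37.6% in A9191, 30.8% and 30.8% in A9195, and 43.2% and 42.6% in A9197. The share in column block 2 was 35.4% before and 35.6% after exercise in A9184, 39.2% and 41.6% in A9188, 37.4% and 39.8% in A9190, 42.3% and 43.6% in A9194, 40.0% and 40.8% in A9196, and 42.2% and 43.1% in A9202. The share was higher after exercise in all 6 horses of block 2, whereas in block 1 it hardly moved in 3 horses and was lower in A9185 and A9197. The levels of the blocks overlapped both before and after exercise, but the changes did not overlap, the highest of block 1 being 0.0463 percentage points (A9195) and the lowest of block 2 being 0.177 (A9184).

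The mean change of the share was -0.300 ± 0.443 percentage points in block 1 and 1.35 ± 0.927 in block 2 (SD, n = 5 and 6 horses). The difference of -1.65 points was larger than the spread between horses (exact permutation test over horses, two-sided, p = 0.00433, or 0.0260 after Benjamini-Hochberg adjustment over the 6 measures per horse that were compared). This measure was added after the data were seen, which the adjustment does not cover. With 1 horse of block 1 left out, the adjusted exact p was 0.114 without A9185 and 0.0857 without each of A9187, A9191, A9195 and A9197, and it was 0.0476 without any 1 horse of block 2. The unadjusted p behind the last value was fixed in advance, since the changes of the blocks did not overlap. The smallest p that 5 against 6 horses allow is 0.00216. By the same exact test, unadjusted, p was 0.0216 with the most abundant gene alone, 0.0108 with 5 genes (-1.66 points), 0.0303 with 20 (-1.75 points), 0.0671 with 50 (-1.41 points) and 0.119 with 100 (-1.09 points). Each of these was higher than the unadjusted 0.00433, and none was adjusted over the 6 measures. Since each of the other measures had an exact p of 0.171 or more by the same test, none of these would pass that adjustment at 0.05. The other measures were the median and SD of the change, the number of genes over 1 log2 unit, and the changes of the total count and of the TMM factor, a library size correction, and their adjusted exact p ranged from 0.396 to 0.892.

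Among the 10 genes, the change of the share differed most between the blocks for the most abundant one. This gene held a mean of 14.5% of all counts, and the mean change of its share was -0.429 points in block 1 and 0.442 in block 2, a difference of -0.872 (exact permutation test, p = 0.0216, unadjusted, n = 5 and 6 horses), and the gene ranked last of the 10 held 1.71%. On the scale of log2 fold change, which is relative to normalized library sizes, 8 of the 10 genes had a lower change in block 1 than in block 2, with differences from -0.17 to 0.13 and a median of -0.08. Of the 10 genes, 1 had an unadjusted P under 0.05 for the difference, beside 4.02% over all genes (lowest P 0.0258, adjusted P 0.996 by edgeR's quasi-likelihood test). The median log2 fold change of the 10 genes was 0.03 in block 1 and 0.10 in block 2, and 0 of them were called in either block. The total count after exercise was lower than before in A9187 by the largest share of any horse (-21.4%), and in A9184 it was higher by 14.3%. The part of depth in the change of the share was not tested, and the change of the total count did not differ between the blocks beyond the spread between horses (exact permutation test, p = 0.171, n = 5 and 6 horses).

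**Figure D4:**
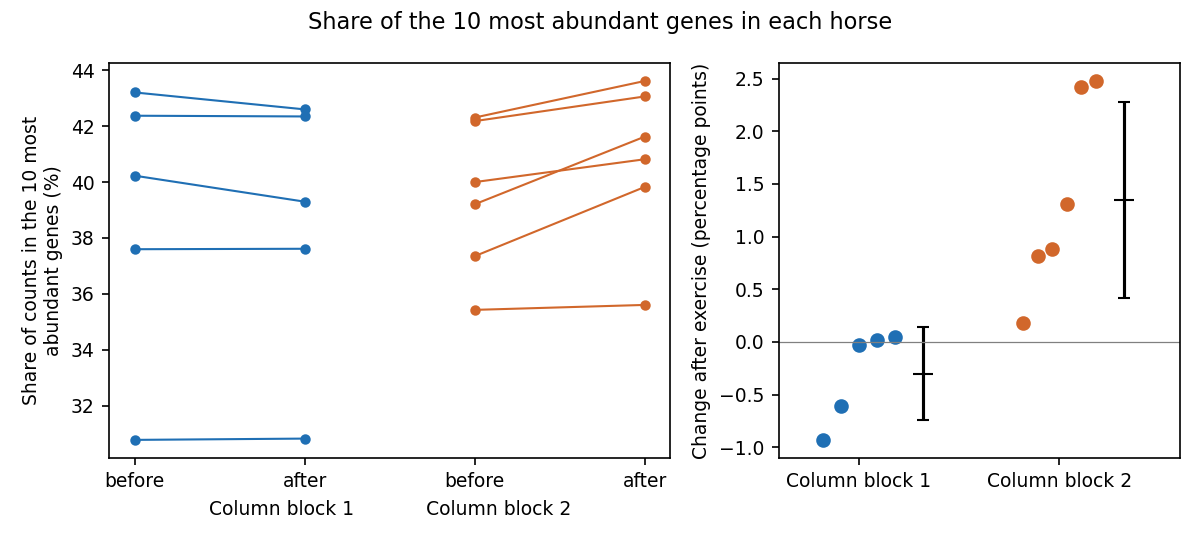
Left, percentage of all counts on the 10 most abundant genes before and after exercise, with 1 line per horse, for column block 1 (5 horses) and column block 2 (6 horses); right, the change of each horse in percentage points with the mean and SD of each block. All 6 horses of block 2 lie above the 5 horses of block 1 in the right panel, with the nearest values at 0.177 and 0.0463 points.

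The changes of the blocks did not overlap for 37 genes (0.327%), with all horses of block 1 above those of block 2 for 20 genes (0.177%) and below for 17 (0.15%). Of the 37 genes, 7 were called in block 1 alone, 2 in block 2 alone and 28 in neither, and 0 were called in both. The horses of the blocks moved in opposite directions throughout for 9 genes (0.0794%), of which 5 (0.0441%) were higher in all horses of block 1 and 4 (0.0353%) higher in all of block 2. None of these genes passed the test of a different response, and whether their numbers exceed those given by chance was not tested.

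The 4 genes given by identifier are the 2 with the smallest P of the difference in each direction, and none of them passed adjustment (adjusted P = 0.996 for each by edgeR's quasi-likelihood test). They were picked from 11330 genes for their differences, so their values describe the extremes of the comparison. ENSECAG00000018026 had the smallest P of all genes and was near the detection limit, with 1 to 35 counts per library. Among the horses of block 1 it went from 0.232 to 0.239 CPM in A9185, from 0.549 to 1.60 in A9187, from 0.814 to 1.18 in A9191, from 1.02 to 1.32 in A9195 and from 0.429 to 0.703 in A9197. Among those of block 2 it went from 0.50 to 0.328 CPM in A9184, from 0.119 to 0.0400 in A9188, from 1.11 to 0.439 in A9190, from 0.291 to 0.124 in A9194, from 0.149 to 0.192 in A9196 and from 1.09 to 0.461 in A9202. The level was higher after exercise in 5 of 5 horses of block 1, by very little in A9185, and lower in 5 of 6 horses of block 2, with A9196 as the exception, and the levels of the blocks overlapped at both times. Its log2 fold change was 0.70 in block 1 and -0.99 in block 2, a difference of 1.69 (standard error 0.373, 95% interval 0.89 to 2.49, unadjusted P = 0.000390 by edgeR's quasi-likelihood test).

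ENSECAG00000007499 was also a gene of low abundance, with 16 to 61 counts per library. Its level in block 1 went from 1.08 to 2.19 CPM in A9185, from 1.25 to 2.39 in A9187, from 0.888 to 2.41 in A9191, from 1.20 to 1.36 in A9195 and from 0.986 to 1.41 in A9197. Its level in block 2 went from 1.81 to 1.46 CPM in A9184, from 1.87 to 1.12 in A9188, from 0.713 to 0.703 in A9190, from 1.82 to 1.03 in A9194, from 2.19 to 1.68 in A9196 and from 1.59 to 2.05 in A9202. All 5 horses of block 1 were higher after exercise, and in block 2 A9202 alone was higher. Before exercise the 5 horses of block 1 lay below 5 of the 6 horses of block 2, with A9190 below them all. The log2 fold change was 0.82 in block 1 (adjusted P = 0.0896) and -0.32 in block 2 (adjusted P = 0.544), a difference of 1.14 (standard error 0.281, 95% interval 0.54 to 1.75, unadjusted P = 0.00114, all by edgeR's quasi-likelihood test).

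ENSECAG00000022236 was measured with 170 to 753 counts per library. The horses of block 1 went from 19.1 to 9.03 CPM in A9185, from 16.0 to 7.98 in A9187, from 12.4 to 10.5 in A9191, from 23.2 to 14.2 in A9195 and from 9.09 to 9.71 in A9197. The horses of block 2 went from 11.5 to 11.3 CPM in A9184, from 10.9 to 13.9 in A9188, from 9.75 to 16.9 in A9190, from 14.7 to 18.3 in A9194, from 10.4 to 17.2 in A9196 and from 17.8 to 18.7 in A9202. The level was lower after exercise in 4 of 5 horses of block 1, with A9197 as the exception, and higher in 5 of 6 horses of block 2, with A9184 as the exception and nearly level. The log2 fold change was -0.59 in block 1 (adjusted P = 0.108) and 0.37 in block 2 (adjusted P = 0.292), a difference of -0.96 (standard error 0.215, 95% interval -1.42 to -0.50, unadjusted P = 0.000554, all by edgeR's quasi-likelihood test).

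ENSECAG00000011075 was the only one of these 4 genes that was called in a block. In column block 1 it went from 11.7 to 11.2 CPM in A9185, from 12.2 to 9.85 in A9187, from 13.3 to 11.1 in A9191, from 18.2 to 17.8 in A9195 and from 3.69 to 3.43 in A9197. In column block 2 it went from 8.19 to 12.3 CPM in A9184, from 4.94 to 6.32 in A9188, from 3.29 to 6.81 in A9190, from 4.92 to 10.1 in A9194, from 8.45 to 10.2 in A9196 and from 6.61 to 7.42 in A9202. The level was lower after exercise in all 5 horses of block 1, by little in A9195 and A9185, and higher in all 6 horses of block 2. Before exercise, 4 of the 5 horses of block 1 lay above all horses of block 2, and A9197 lay among the lowest. The log2 fold change was 0.57 in block 2 (standard error 0.113, adjusted P = 0.0324) and -0.15 in block 1 (standard error 0.120, adjusted P = 0.533), both by edgeR's quasi-likelihood test. The difference was -0.72 (standard error 0.165, 95% interval -1.08 to -0.37, unadjusted P = 0.000652 by the same edgeR test), and its call in block 2 belongs to the values that chose it.

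**Figure D5:**
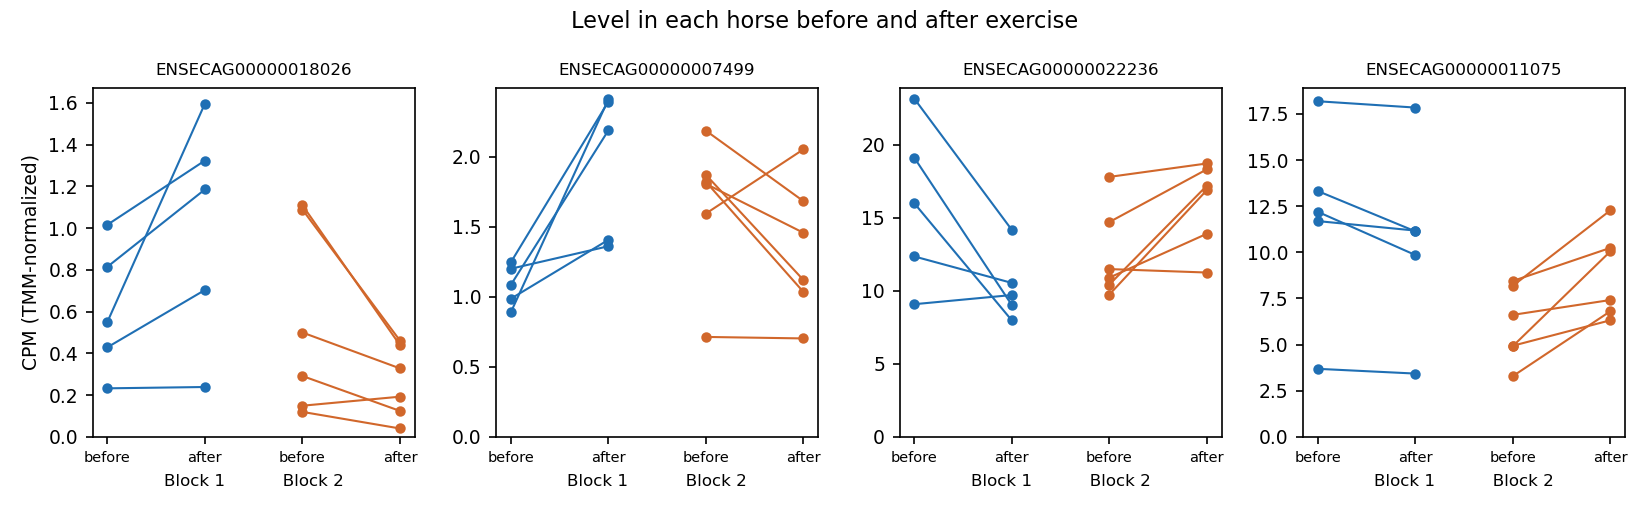
Level of the 4 genes in CPM with TMM-normalized library sizes, before and after exercise, with 1 line per horse, for column block 1 (5 horses, blue) and column block 2 (6 horses, orange); the vertical scale differs between panels. In the first and second panels most lines go up in block 1 and down in block 2, and in the other panels the reverse; none of the 4 differences passed adjustment (adjusted P = 0.996).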

How the data were processed

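RNA-Seq libraries were made from total RNA with a strand-specific kit that captures polyadenylated transcripts. The authors deposited raw counts per gene, without normalization. Per the study's methods and the submitters' processing notes, which name FastQC, STAR and Picard, reads were aligned with STAR to Ensembl horse coding sequences (EquCab2.86), counted by STAR and filtered by CPM over horses, which left 11330 genes.

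The 22 libraries of 11 horses were fitted in edgeR 4.0.16 (R 4.3.3) with TMM normalization, 1 term per horse and an after exercise effect for each column block. The responses and their difference were tested with glmQLFit and glmQLFTest, two-sided, with Benjamini-Hochberg adjustment over 11330 genes at 0.05. Intervals are the estimate and its standard error with the t quantile of the moderated degrees of freedom. CPM used TMM-normalized library sizes, and log2 CPM a prior count of 2. Single values per horse were compared with exact permutation tests over the 462 arrangements of 5 and 6 horses, and all measures other than the median absolute change and the SD of the change were added after the data were seen. Total counts were 22528109 to 29452440, and 0 columns were unmatched. The fits were tested on simulated counts.

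The pairing rests on the horse named in both titles. Deviations from the mean log2 CPM of the block and time had a mean r across genes of 0.484 for biopsies of the same horse (range 0.301 to 0.642, 11 pairs) and of -0.0479 for different horses (range -0.367 to 0.317, 110 pairs). The counts of any pair of libraries had a chi-square per degree of freedom of at least 13.1, so none was a copy within sampling noise.

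The alternatives were size factors and the Wald test of DESeq2 1.42.0, the likelihood ratio test of edgeR, voom with limma 3.58.1, no replicate block, each block's libraries alone, fits without the 10 most abundant genes or without genes under 10 counts in any library, and fits that left out 1 horse. The robust prior, other numbers of most abundant genes and the reading of one block's calls in the other were added after the data were seen. Named genes were to be those called for the difference, or else the smallest P in each direction, and with identifiers lacking names they were limited to 2 in each direction. Gene lists and cell type markers were not looked up for the same reason. The horses compared and the lists were chosen with earlier results of these data known.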

Additional observations from a re-analysis of the deposited data

Results flagged for a closer look

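In 48 groups of horses or libraries, the highest or lowest value was compared with its nearest neighbor relative to the range of the group, and chance sets apart about 1 in 20 such groups. A9191 stood apart from the other 4 horses of column block 1 in the SD over genes of its change in log2 CPM, which was 0.518 (0.390 to 0.417 in the others). It also stood apart in the number of genes that moved by more than 1 log2 unit, which was 653 (319 to 359 in the others), and in its total count after exercise, 26388085, where the others had 23048221 to 23980773. The SD and the number of genes summarize the same changes of A9191 and are not separate signs. Without A9191 the difference between blocks in the median absolute change was 0.00613 (exact permutation test, p = 0.662), and 0 genes passed the test of a different response, with 643 at an unadjusted P under 0.05 by edgeR's quasi-likelihood test.

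Among the 4 named genes and the 6 measures per horse, 1 gene and 1 measure set the blocks against each other. The 4 genes had been picked from all 11330 for their differences, which favors such a gene. ENSECAG00000011075 was lower after exercise in all 5 horses of block 1 and higher in all 6 horses of block 2, with a difference of -0.72 log2 units whose adjusted P was 0.996 by edgeR's quasi-likelihood test. Among all 11330 genes, 9 (0.0794%) moved in opposite directions in all horses of the blocks. The change in the share of counts on the 10 most abundant genes differed by -1.65 percentage points, block 1 minus block 2 (exact permutation test, p = 0.00433, adjusted 0.0260), and without 1 horse at a time the difference was -1.88 to -1.42 points. This measure was added after the data were seen. Its adjusted exact p was 0.0857 to 0.114 without 1 horse of block 1 and 0.0476 without 1 horse of block 2. In the fits without 1 horse of block 2 the unadjusted exact p was 0.00794, the smallest that 5 against 5 horses allow. That value was fixed in advance, since the changes of the blocks did not overlap.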

How the results depend on the processing

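The interaction had 0 calls under all 19 alternatives, with the lowest adjusted P being 0.163 (edgeR's likelihood ratio test) and 171 (no replicate block) to 811 (without A9197) genes at an unadjusted P under 0.05. The 4 named differences kept their direction under all alternatives run and passed adjustment under none, ranging over 1.45 to 1.82 for ENSECAG00000018026 (18 alternatives, since it has under 10 counts in some libraries), 0.99 to 1.31 for ENSECAG00000007499, -1.12 to -0.83 for ENSECAG00000022236 and -0.80 to -0.62 for ENSECAG00000011075 (19 alternatives each). Calls in block 1, in block 2 and in both (75, 102 and 20) were 195, 231 and 56 with DESeq2's Wald test and 308, 341 and 79 with edgeR's likelihood ratio test. With no replicate block, which drops the pairing by horse, they were 5 (60.0% higher), 3 (100% higher) and 0. Block 1 fitted alone gave 4 calls and block 2 alone 174, and the cause of these shifts was not tested. With 1 horse left out, they were 4 to 231, 13 to 168 and 4 to 38. The lowest values came without A9187, A9190 and A9187, and the highest without A9197, A9191 and A9197. DESeq2 size factors gave 74, 101 and 20, limma-voom 85, 112 and 21, at least 10 counts in every library (10853 genes) 81, 90 and 20, removal of the 10 most abundant genes 75, 97 and 19, and the robust prior 74, 98 and 19. The same sign in the other block was found for 91.8% to 100% of block 1 calls and 88.7% to 100% of block 2 calls. The difference in the size of change was 0.00613 to 0.0431 under 16 alternatives, always above 0, with an exact p of 0.0762 to 0.662. The block difference in the change of the share of the most abundant genes, with an unadjusted exact p throughout, was -0.872 points with 1 gene (exact p = 0.0216), -1.66 with 5 (exact p = 0.0108), -1.75 with 20 (exact p = 0.0303), -1.41 with 50 (exact p = 0.0671) and -1.09 with 100 (exact p = 0.119), and -1.88 to -1.42 with 1 horse left out (exact p = 0.00794 to 0.0190). Adjustment over the 6 measures was made with 10 genes alone. With the other numbers of genes the unadjusted exact p was higher than the 0.00433 with 10, and too high to pass that adjustment at 0.05. After adjustment, leaving out any 1 horse of block 1 ended the call (adjusted exact p = 0.0857 to 0.114), and leaving out 1 horse of block 2 did not (0.0476). Without 1 horse of block 2 the unadjusted exact p of 0.00794 was the smallest that 5 against 5 horses allow. It was fixed in advance, since the changes of the blocks did not overlap, so these fits do not show that the call is robust. Depth limits the genes of low abundance, and no unfiltered test was run, since the count table holds the filtered genes alone.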
